A study of Mus musculus with 6 samples.

Results

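The cytosolic ribosomal protein genes encode the protein part of the ribosomes that translate nuclear messages. They were taken from the count table by symbol, as every mouse protein-coding gene named Rpl or Rps with a number, together with Rplp0, Rplp1, Rplp2 and Rpsa. The ribosomal S6 kinase genes, Rps19bp1 and all rows marked as pseudogenes were left out. This gave 88 of the 27179 genes in the table, of which 54 encode proteins of the large (60S) and 34 of the small (40S) subunit. The count includes tissue-restricted and duplicated copies such as Rpl10l, Rpl3l, Rpl39l and Rps27rt.

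Polyadenylated RNA was sequenced from dendritic cells lacking CD8 that had been sorted from the spleens of C57BL/6 mice and lysed without culture. In 3 libraries the cells came from untreated mice and in 3 from CpG-pretreated mice, and both groups carry the replicate numbers 2, 3 and 4. CpG DNA is sensed by Toll-like receptor 9, and the series title calls the cells paralysed after a systemic inflammatory syndrome. Not given in the sources used here are the CpG sequence, its dose, route and time, the age of the mice and whether 1 mouse or a pool gave each library. The series text calls the libraries biological replicates, and a p-value here reflects their spread alone.

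Each ribosome holds 1 copy of most ribosomal proteins, the acidic stalk proteins being an exception, and the genes are transcribed at high rates in most cell types. Their messages begin with a terminal oligopyrimidine (TOP) tract, a cytosine at the cap followed by further pyrimidines, through which the kinase complex mTORC1 and the protein Larp1 adjust their translation. In dendritic cells, ligands of Toll-like receptors are known to alter protein synthesis, and part of that control acts on translation and is not visible in message counts. The mammalian genome also holds many processed pseudogenes of these genes, which are near-identical copies of the spliced message.

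The shared sequence is shown first because it runs with the level at which a gene was counted. All exact windows of 50 bases in the coding sequence of each gene were looked up on both strands in the transcripts of every other gene of the GENCODE M21 annotation. The 3 sequences below come from genes among the 4 with the lowest counts per length outside the paralogues and other copies. Each was chosen because it occurs in several other genes. The whole of each window is matched, so no base is in capitals.
Rpl5: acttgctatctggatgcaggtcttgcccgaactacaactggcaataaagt
Rpl24: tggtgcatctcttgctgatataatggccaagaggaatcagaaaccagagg
Rpl35: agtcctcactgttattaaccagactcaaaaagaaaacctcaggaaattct
The Rpl5 window covers bases 427 to 476 of the coding sequence and occurred unchanged in 5 other annotated genes, all 5 of them pseudogenes. The Rpl24 window (bases 249 to 298) was found in 5 other genes, 4 of them pseudogenes, and the Rpl35 window (bases 168 to 217) in 5, of which 3 are pseudogenes.

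A second set of sequences shows the start sites, since the TOP tract is the feature these messages are known for. Of the 88 genes, 68 had an entry in the RefSeq promoter table of GRCm38.p6. The tract was searched on the transcribed strand as a C at the annotated start, or up to 2 bases beside it, followed by at least 4 bases that are C or T. It was present at 24 of the 68 ribosomal protein genes (35.3%) and at 2839 of 26957 other genes (10.5%). With the C required at the annotated start itself, the shares were 22.1% (15 genes) and 2.96% (798 genes). The following 6 genes with a tract belong to those chosen for their roles or, for Rps24, for the test result given further on. Each is shown over 30 bases, 15 on either side of the start, with the tract in capitals. The tract of Rpl13a runs on past the end of the stretch shown.
Rps24: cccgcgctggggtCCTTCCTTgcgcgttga
Rps6: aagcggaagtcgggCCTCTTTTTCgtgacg
Rps27: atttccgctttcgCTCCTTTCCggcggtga
Rplp2: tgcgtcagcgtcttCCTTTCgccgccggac
Rpl38: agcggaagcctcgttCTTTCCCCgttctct
Rpl13a: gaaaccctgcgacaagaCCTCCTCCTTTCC
In GRCm38.p6 these stretches are chr14:24490663-24490692 for Rps24 (plus strand), chr4:86857353-86857382 for Rps6 (minus strand), chr3:90213634-90213663 for Rps27 (minus strand), chr7:141447636-141447665 for Rplp2 (plus strand), chr11:114668565-114668594 for Rpl38 (plus strand) and chr7:45128731-45128760 for Rpl13a (minus strand). A match is a description of the annotated start and not a mapped cap site.

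The library totals ran from 7855500 to 8228140 counts, so that 1 count was worth 0.122 to 0.127 CPM, the count scaled to a common library size, and a count of 0 allows up to 0.365 to 0.382 CPM by counting error alone. CPM values were normalized by TMM, and RPKM values are those CPM per kilobase of the gene length that the authors deposited. Gene length matters here, because the ribosomal protein genes are short (median 694 bases, against 2794 for all genes tested) and the libraries differed along gene length. The Spearman correlation, across genes, of a library's deviation from the mean of the 6 libraries with gene length was -0.60 in untreated 2 and -0.41 in CpG-pretreated 2. It lay between 0.21 and 0.42 in the other 4 libraries.

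Per length, the ribosomal protein genes spanned a wide range of levels. Rpl8, whose product lies near the peptidyl transferase centre, was the highest at 1143 ± 146 RPKM (SD over the 6 libraries). Rpl4, part of the wall of the peptide exit tunnel, reached 864 ± 65.5 RPKM, and Rps9, a protein of the 40S body, 784 ± 121 RPKM. The stalk gene Rplp1 stood at 640 ± 141 RPKM. Rpl8 and Rpl4 lay further apart than their SD ranges, whereas those of Rpl4 and Rps9, and of Rps9 and Rplp1, overlapped. Rpl8 stood at 1361, 1036 and 1024 RPKM in untreated 2, 3 and 4, and at 1290, 1041 and 1105 RPKM in the CpG-pretreated libraries of the same numbers. The number 2 library was the highest in both groups, and the groups overlapped.

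At the other end, 10 of the 88 genes had too few counts to be tested (Rpl10l, Rpl13, Rpl23a, Rpl32l, Rpl35, Rpl36a, Rpl39, Rpl39l, Rpl3l and Rps23rg1). Some of these are tissue-restricted copies, such as Rpl10l, known from testis, with 1 count in untreated 3 and 0 in the other 5 libraries. Others encode core proteins found in every ribosome. Rpl13, a 60S protein, had 6, 2 and 9 counts in the untreated and 5, 6 and 5 counts in the CpG-pretreated libraries (numbers 2, 3 and 4), and Rpl23a, at the tunnel exit, had 8, 9 and 8 against 7, 13 and 8 counts. Of the 78 genes tested, Rpl5 was the lowest at 1.18 ± 0.291 RPKM, with Rpl24, Rpl27 and Rpsa next at 1.52, 1.95 and 2.42 RPKM, so that the level of Rpl8 was 969-fold that of Rpl5. This order was nearly the same in every library, with Spearman correlations of RPKM over the 78 genes of 0.99 in all 15 pairs of libraries.

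The level ran with the amount of coding sequence shared with other genes. Of the 88 genes, 86 matched a GENCODE gene by Entrez ID (not Rpl32l and Rpl37rt). Across these 86 genes, the Spearman correlation of mean RPKM with the share of coding windows found in another gene was -0.58. It was -0.78 across the 77 that are neither paralogues nor other copies, and all points share the same 6 libraries. In the 20 of these 77 genes with every coding window shared, the median was 6.55 RPKM, from 0.876 (Rpl13) to 36.4 RPKM (Rpl27a). The 45 genes with 50% or more but not all windows shared had a median of 53.2 RPKM, from 1.52 (Rpl35) to 640 RPKM (Rplp1), and the 12 genes with less than 50% shared a median of 422 RPKM, from 73.7 (Rps19) to 1143 RPKM (Rpl8). These 12 genes held 56.3% of all counts in ribosomal protein genes, and the 20 fully shared genes held 1.62%. The same order of the 3 classes was seen in each library (4.20 to 7.68 RPKM, 43.6 to 73.4 RPKM and 341 to 607 RPKM as class medians). Shared windows took 8.73% of the coding windows of Rpl8, 6.74% of Rps3 and 20.3% of Rpl4, and 100% of those of Rpl5, Rpl24, Rpl13 and Rps6. The rule by which reads matching several genes were counted was not stated, and its part in these levels was not tested. The level of 1 ribosomal protein gene against another is therefore uncertain in this table. The 34 rows with a ribosomal protein symbol that are annotated as pseudogenes held 0.0027% to 0.00472% of the counts of a library. Of the 5 that could be tested 0 were called, with or without the block. These rows are only a part of such pseudogenes, since Rps2 alone shared 50-base windows with 71 annotated pseudogenes. Counts in pseudogenes under other names were not summed. For the change after CpG, across 77 tested genes, the Spearman correlation of the log2 fold change with the share of coding windows was -0.039, and the 3 classes had median log2 fold changes of -0.16, -0.17 and -0.11.

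**Figure D1:**
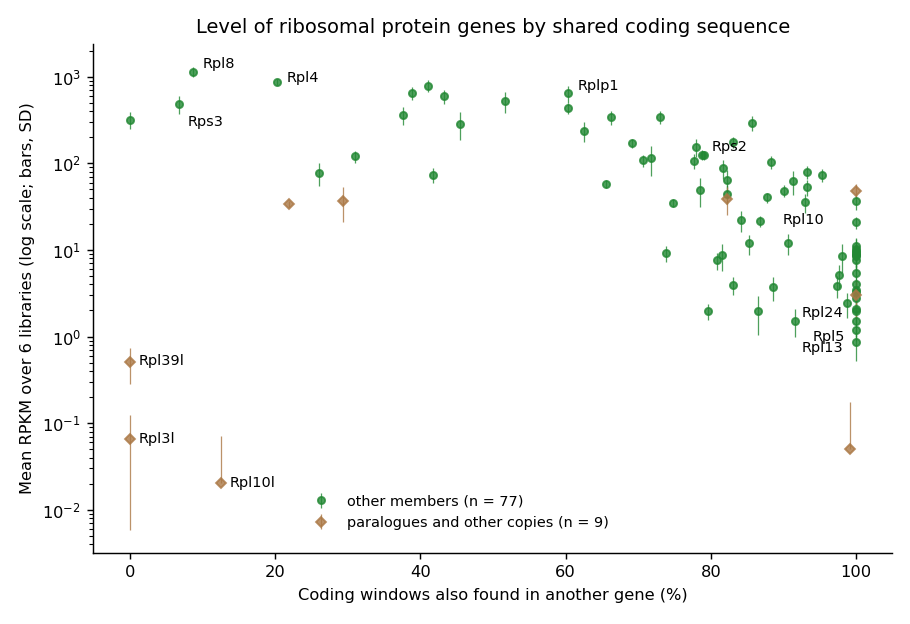
Mean RPKM over the 6 libraries (log scale; bars, SD, with a lower bar left out where it would reach 0) against the percentage of 50-base coding windows that also occur in another annotated gene, for 86 ribosomal protein genes. The 12 genes with less than 50% shared, other than paralogues and copies, all lie at 73.7 RPKM or above, and the 20 with every window shared lie at 36.4 RPKM or below.

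Together the ribosomal protein genes took close to 1% of each library. The share is that of the counts as deposited, and the part of the unstated rule for reads matching several genes was not tested. Their share of all counts was 1.25%, 0.844% and 0.82% in untreated 2, 3 and 4, and 1.02%, 0.786% and 0.862% in the CpG-pretreated libraries of the same numbers. The groups overlapped, and the number 2 library was the highest of each group. The mean share was 0.973 ± 0.244% in untreated and 0.889 ± 0.119% in CpG-pretreated cells (SD, n = 3 each), a difference of -0.0835 percentage points (exact permutation test, two-sided, p = 0.7; the smallest p that 3 against 3 libraries can give is 0.1). Without untreated 2 the difference was 0.0573 percentage points, in the opposite direction. The share of the 60S genes was 0.564 ± 0.122% against 0.526 ± 0.0647%, and that of the 40S genes 0.409 ± 0.123% against 0.363 ± 0.0545% (exact permutation p = 0.7 for each). The 5 genes with the most counts, Rpl4, Rpl8, Rps3, Rplp0 and Rps9, held 43.4% to 47.2% of the ribosomal protein counts of a library.

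Gene by gene, no ribosomal protein gene differed between the groups at an adjusted p under 0.05 (edgeR quasi-likelihood test, Benjamini-Hochberg over all 11602 genes tested). Adjusted p-values of the 78 tested genes lay between 0.411 and 1. An unadjusted edgeR p under 0.05 was found in 0 of them, and in 1485 of all 11602 genes. Over all genes, 113 were called, 55 higher and 58 lower after CpG (0.974%). No ribosomal protein gene was called by limma-voom either, where 0.353% of all genes were called, or by DESeq2, where 3.69% were called. An unadjusted limma-voom p under 0.05 was found in 2 of the 78 and in 1455 of all genes tested. For DESeq2 these numbers were 0 and 1259. For 64 of the 78 genes the 95% confidence interval of the log2 fold change lay inside -1 and 1, and for 24 it lay inside -0.5 and 0.5. The interval reached -1 in 13 genes and 1 in 1 gene (Rpl36).

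Most of the estimates were below 0. The log2 fold change was below 0 in 65 of the 78 genes (83.3%, against 51.1% of all genes tested), with a median of -0.16 against -0.0054 for all genes. Without untreated 2 alone the median was 0.083, and 24 of the 78 genes were below 0. Without both number 2 libraries it was -0.041, with 45 of 77 genes below 0 (47 with the replicate number as a block). In the same 78 genes, the median deviation from the mean of the 6 libraries was 0.43 in untreated 2 on the log2 scale, and 63 genes had their highest value there. It was -0.10 and -0.16 in untreated 3 and 4, and 0.14, -0.21 and -0.16 in CpG-pretreated 2, 3 and 4. After the trend with gene length had been removed from each library, these medians shrank to 0.12, 0.014 and -0.046 in the untreated and -0.00061, -0.12 and -0.025 in the CpG-pretreated libraries. The median log2 fold change with this correction was -0.08, with 58 of 78 genes below 0, and no ribosomal protein gene was called (3.17% of all genes were called).

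**Figure D2:**
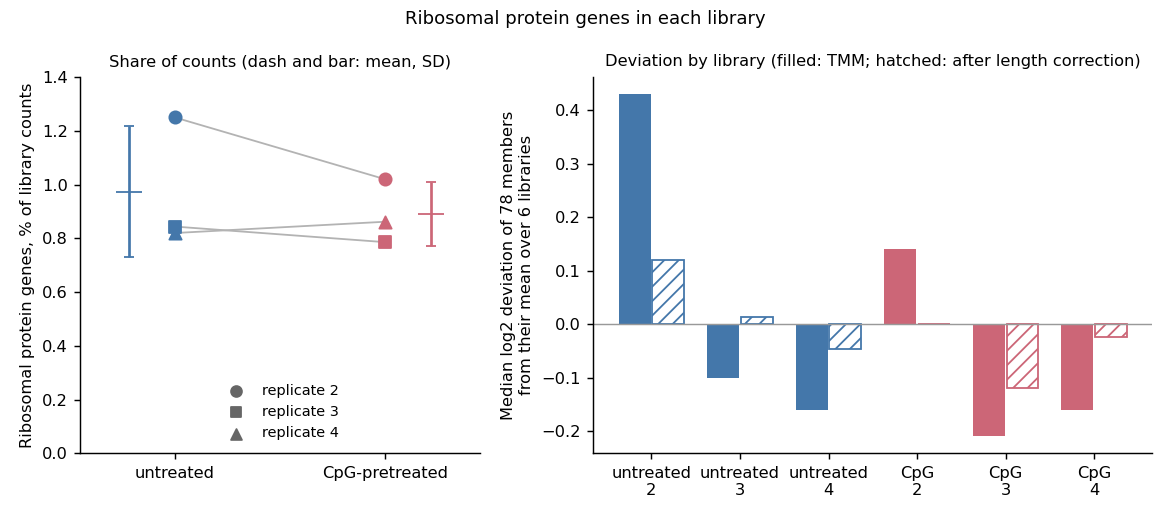
Left, counts in ribosomal protein genes as a percentage of all counts in each library, with lines joining equal replicate numbers and the mean and SD of each group beside the points. Right, median log2 deviation of the 78 tested genes from their mean over the 6 libraries, before (filled) and after (hatched) a trend with gene length was removed: untreated 2 stands at 0.43 before and 0.12 after.

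Within equal replicate numbers, the median log2 ratio of CpG-pretreated over untreated was -0.29 for number 2, -0.12 for number 3 and 0.026 for number 4, with 67, 57 and 32 of the 78 genes below 0. After the length correction these medians were -0.12, -0.16 and 0.045. Libraries of equal number deviated together across all genes, and a fit blocked on the replicate number called 1 ribosomal protein gene, Rps24, as lower after CpG, where 3.78% of all genes were called lower. It called no ribosomal protein gene higher, where 549 of the 11602 genes tested were called higher. In the blocked fit 12 of the 78 genes had an unadjusted edgeR p under 0.05, where 2511 of all genes tested did. With the length correction added to the block these numbers were 10 and 2695.

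Rps24 encodes a 40S protein that is among the genes mutated in Diamond-Blackfan anaemia, a failure of red cell production. Its level was 73.6, 37.3 and 37.5 CPM in untreated 2, 3 and 4, and 45.0, 30.8 and 32.9 CPM in CpG-pretreated 2, 3 and 4. The CpG-pretreated library was the lower of each equally numbered pair, but the groups overlapped because number 2 was high in both. The log2 fold change was -0.45 (SE 0.28; edgeR quasi-likelihood adjusted p = 0.604) without the block and -0.41 (edgeR adjusted p = 0.0341) with it. With block and length correction together the edgeR adjusted p was 0.0287, and Rps24 was again the only ribosomal protein gene called (4.22% of all genes were called lower). The blocked call was lost when either both number 2 libraries (edgeR adjusted p = 0.364) or both number 3 libraries (edgeR adjusted p = 0.0807) were left out.

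Without both number 4 libraries, the blocked fit called 12 ribosomal protein genes lower of 77 tested, where 5.56% of all genes were called lower. They included Rpl10, Rpl13a, Rpl26, Rpl34, Rpl35a, Rps3, Rps3a1, Rps14, Rps18, Rps21 and Rps24. The 2 remaining pairs are those with the larger negative medians, and no ribosomal protein gene was called in the blocked fit without number 2 or without number 3. This fit rests on those 2 pairs and had no length correction. That correction moved the median of the number 2 pair from -0.29 to -0.12, and its part in the 12 calls was not tested.

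**Figure D3:**
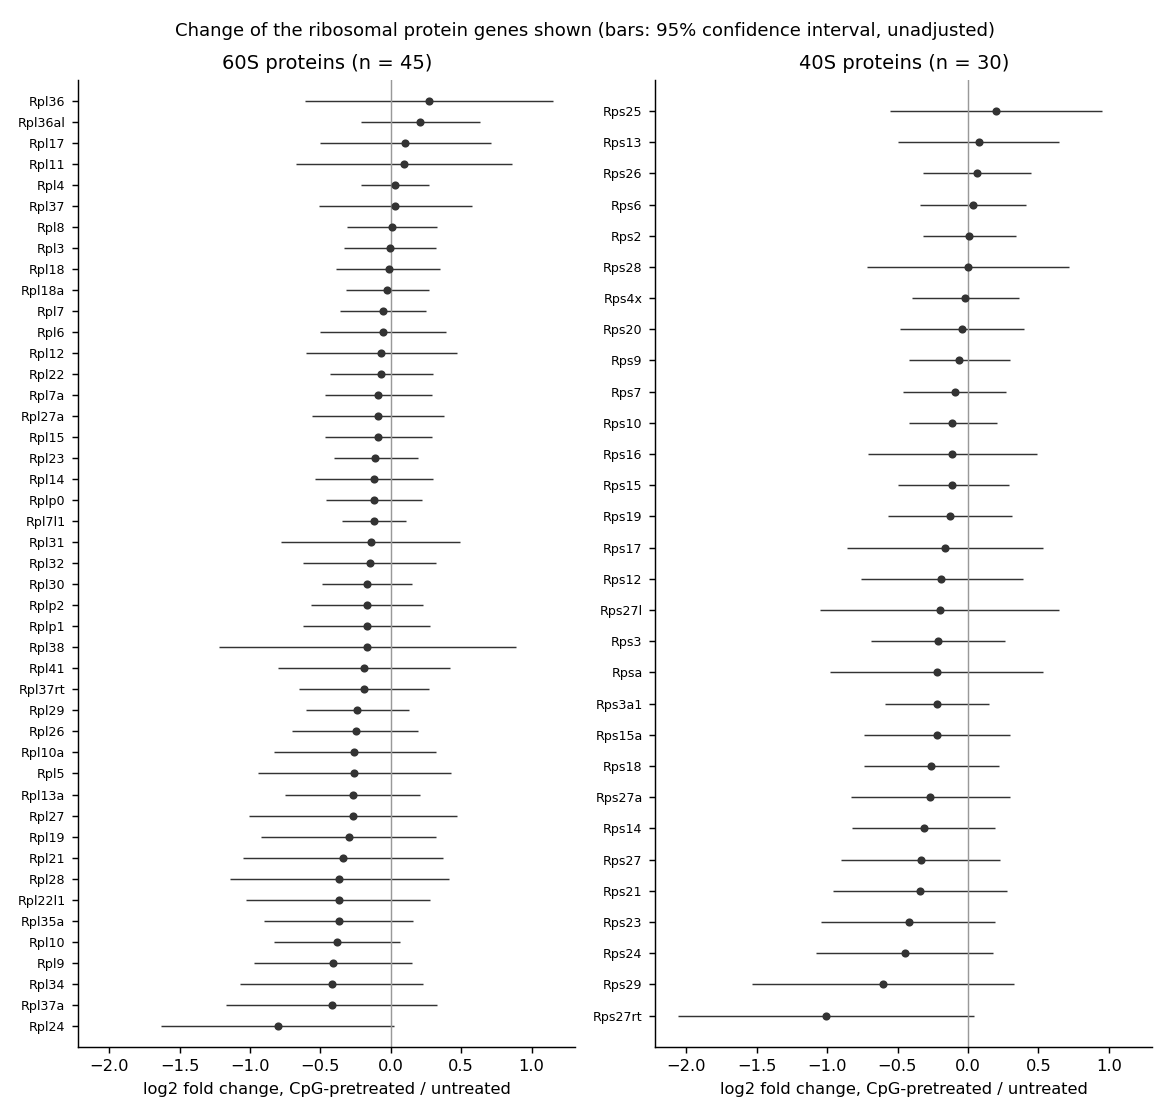
Log2 fold change of CpG-pretreated over untreated for the 45 tested 60S genes (left) and 30 of the 33 tested 40S genes (right), each with its unadjusted 95% confidence interval. All intervals include 0, and most points lie to its left.

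In the stalk, which recruits translation factors, Rplp0, Rplp1 and Rplp2 had log2 fold changes of -0.12 (SE 0.15), -0.17 (SE 0.20) and -0.17 (SE 0.17). Rplp0 stood at 749, 562 and 545 CPM in the untreated and at 631, 492 and 584 CPM in the CpG-pretreated libraries. The groups of Rplp0 overlapped, and the number 2 library was the highest of each. Rpl5 and Rpl11, which join the 5S ribosomal RNA and can bind the p53 regulator Mdm2, were counted at low levels (2.60 and 2.22 CPM on average in untreated cells). Their log2 fold changes were -0.26 (SE 0.30) and 0.097 (SE 0.33).

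Among the other 60S genes chosen for their roles, Rpl3, a protein of the peptidyl transferase region, had 55.0 ± 8.80 CPM without and 54.7 ± 6.61 CPM with CpG (SD, n = 3 each). Rpl4 stood at 1325, 1168 and 1149 CPM in the untreated and 1346, 1129 and 1251 CPM in the CpG-pretreated libraries, with a log2 fold change of 0.033 and a 95% interval of -0.21 to 0.27. It also varied least of the 78 tested genes, by 1.19-fold between its highest and lowest library, against a median of 1.75-fold. Rpl10, needed for the joining of the subunits, stood at 39.4, 33.1 and 23.2 CPM in the untreated and 26.1, 26.1 and 21.3 CPM in the CpG-pretreated libraries. The log2 fold change of Rpl10 was -0.38 (SE 0.19, edgeR adjusted p = 0.486, or 0.0626 with the block), and the groups overlapped.

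Rpl13a, whose product can leave the ribosome after interferon-gamma to silence inflammatory messages, had 268 ± 89.2 CPM without and 222 ± 22.9 CPM with CpG (SD, n = 3 each; log2 fold change -0.27, SE 0.21). Rpl26, which binds the p53 message, had a log2 fold change of -0.25 (SE 0.20), and Rpl10a one of -0.26 (SE 0.25). Rpl22, known for its part in lymphocyte development, had one of -0.068 (SE 0.16), Rpl41, the smallest ribosomal protein, -0.19 (SE 0.27), and Rpl38, known for selective translation of Hox messages, -0.17 (SE 0.46). Each of their 95% intervals included 0. The 5 tested genes of the exit tunnel ranged from -0.30 to 0.10.

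In the small subunit, Rps3, at the entry of the message channel, had 1315, 832 and 787 CPM in the untreated and 992, 716 and 823 CPM in the CpG-pretreated libraries (log2 fold change -0.21, SE 0.21). Untreated 2 stood apart from the other 5 libraries, among which the groups overlapped. Rps2, also at the entry of the channel, had 150, 110 and 112 CPM in the untreated and 139, 123 and 113 CPM in the CpG-pretreated libraries (log2 fold change 0.010, SE 0.15). Rps6, the substrate of S6 kinase downstream of mTORC1, had 13.5 ± 1.50 against 13.8 ± 2.03 CPM (log2 fold change 0.038, SE 0.16; SD, n = 3 each). Rps4x, Rps19, Rps26 and Rps28 had log2 fold changes of -0.022, -0.13, 0.062 and 0.00021, and Rpsa, also known as the laminin receptor, one of -0.22 (SE 0.33). Rps27a, made as a fusion with ubiquitin, had one of -0.27 (SE 0.25).

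By role, the 14 genes of the 40S head had a median log2 fold change of -0.12, the 17 of the 40S body and platform one of -0.21, and the 16 ribosomal protein genes of the Diamond-Blackfan anaemia list one of -0.14. None of these was called, except Rps24 with the block, which stands in both the second and the third group. The medians over all 45 tested 60S and 33 tested 40S genes were -0.15 and -0.16, beside -0.0054 over all genes tested.

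The largest estimates belonged to weakly counted genes. Rps27rt, a copy of Rps27 without introns, had 1.47, 1.50 and 1.60 CPM in the untreated and 1.23, 0.254 and 0.756 CPM in the CpG-pretreated libraries, from 2 to 13 counts each. Its log2 fold change was -1.01 (SE 0.46, edgeR adjusted p = 0.417). Rpl24, which forms a bridge between the subunits, had 10, 10 and 12 counts in the untreated and 8, 4 and 6 counts in the CpG-pretreated libraries (log2 fold change -0.80, SE 0.36, edgeR adjusted p = 0.411). In both genes all 3 CpG-pretreated libraries lay below all 3 untreated ones.

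Rps29, a zinc-binding protein of the 40S head, had a log2 fold change of -0.60 (SE 0.40), and Rps23, of the decoding centre, one of -0.42 (SE 0.27). Rps23 was the third gene whose groups did not overlap, with 4.30, 3.00 and 2.95 CPM in the untreated and 2.94, 2.66 and 2.02 CPM in the CpG-pretreated libraries. Across the 78 genes, 3 thus had all CpG-pretreated libraries lowest, where 9.47% of all genes tested did, and 0 had them highest, where 9.20% did. All coding windows of these 3 genes occurred in other genes.

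On the other side of 0, the 5 largest log2 fold changes were 0.27 (SE 0.38) for Rpl36, 0.21 (SE 0.18) for Rpl36al, 0.20 (SE 0.33) for Rps25, 0.10 (SE 0.26) for Rpl17 and 0.097 for Rpl11. Rpl36al, a paralogue of Rpl36a, stood at 28.6, 19.3 and 21.9 CPM in the untreated and 32.1, 23.2 and 25.3 CPM in the CpG-pretreated libraries. The CpG-pretreated library was the higher of each equally numbered pair, and the groups overlapped (edgeR adjusted p = 0.754, or 0.267 with the block).

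**Figure D4:**
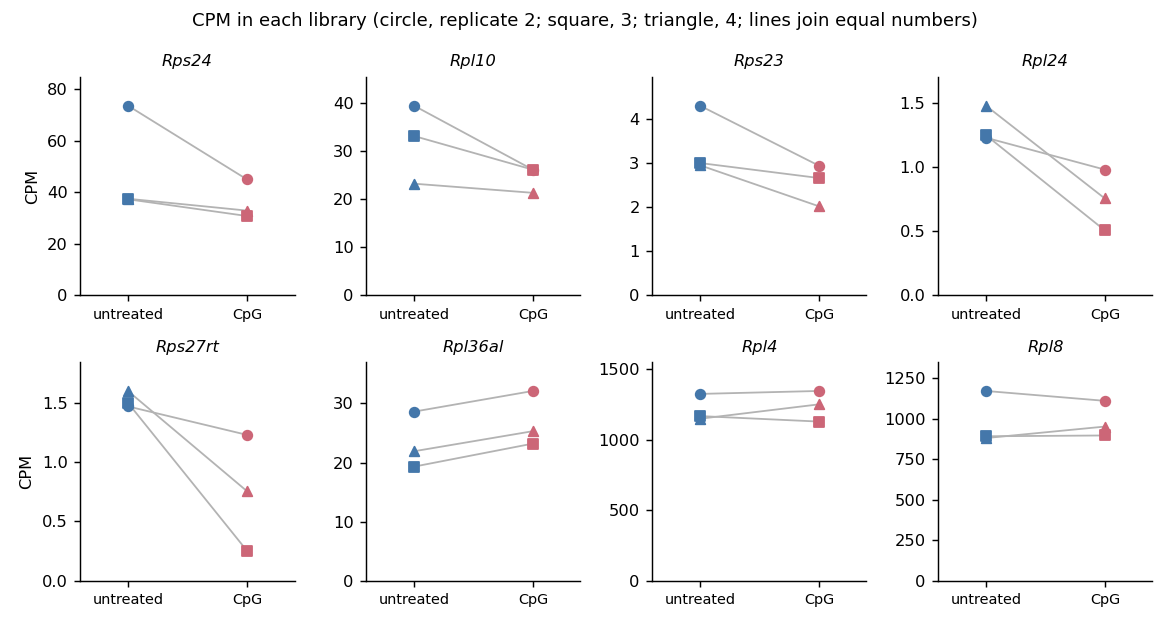
CPM of 8 ribosomal protein genes in each library, with lines joining equal replicate numbers; each panel has its own axis from 0. In Rps24 and Rpl8 the number 2 libraries are the highest of both groups, and in Rpl24, Rps27rt and Rps23 the 3 CpG-pretreated libraries lie below the 3 untreated ones.

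Some ribosomal proteins have a paralogue that can take their place in the ribosome. Of the listed pairs with both genes tested there were 5, and the ratio of paralogue to parent in CPM was compared for each. The ratios were not corrected for gene length, which differs within pairs. Rpl22l1 has 477 bases and Rpl22 2040, and Rpl7l1 has 2606 and Rpl7 934. The part of the length trend of the number 2 libraries in the ratios was not tested. Rpl22l1, whose product can replace Rpl22, stood at 0.0997, 0.074 and 0.0708 of the Rpl22 level in the untreated and at 0.0724, 0.0753 and 0.0556 in the CpG-pretreated libraries. Rps27l, a target gene of p53, was the more counted member of its pair, at 2.24 ± 0.576 times Rps27 in untreated and 2.58 ± 0.49 times in CpG-pretreated cells (SD, n = 3 each). Shared windows took 90.6% of the coding windows of Rps27 and 29.4% of those of Rps27l, so the level of 1 against the other is uncertain. Rpl7l1 stood at 0.574 ± 0.0492 and 0.544 ± 0.0193 of Rpl7, and Rps27rt at 0.209 ± 0.0619 and 0.116 ± 0.067 of Rps27 (SD, n = 3 each). Shared coding windows were 82.2% in Rpl22l1 against 31% in Rpl22, 21.9% in Rpl7l1 against 69.2% in Rpl7, and 100% in Rps27rt. The levels within these pairs are therefore uncertain too, and Rps27rt had only 2 to 13 counts per library. Rps4l, which RefSeq annotates as a transcribed pseudogene and which is therefore not among the 88 genes, stood at 0.181 ± 0.026 and 0.196 ± 0.0444 of Rps4x (SD, n = 3 each). None of the 5 ratios passed the test (exact permutation test on log2 ratios, two-sided, Benjamini-Hochberg over the 5, adjusted p = 0.625 to 0.7; unadjusted p from 0.2 to 0.7). The groups overlapped in all 5 ratios. For Rps27rt over Rps27 they did so through number 2 alone, with 0.138 in the untreated and 0.179 in the CpG-pretreated library.

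Genes that make, regulate or accompany ribosomal proteins were followed as lists. Fau and Rack1 encode ribosomal proteins under other names. Rack1 had 711 ± 175 against 672 ± 89.1 CPM (SD, n = 3 each; log2 fold change -0.082, SE 0.18), and neither Fau nor Rack1 was called with or without the block. Among 22 other genes with TOP messages 0 were called, and their median log2 fold change was 0.0048. The most abundant of them were the elongation factor genes Eef2, with 2313 ± 133 against 2519 ± 55.7 CPM (log2 fold change 0.12, SE 0.088), and Eef1a1, with 1585 ± 181 against 1552 ± 149 CPM (SD, n = 3 each; log2 fold change -0.030, SE 0.12).

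Also 0 genes were called among 35 translation initiation factors (median 0.085), 42 ribosome biogenesis factors (median 0.015), 16 genes of RNA polymerase I and its factors (median -0.035) and 17 tested genes of mTORC1 and TOP control (median 0.015). In the last list Larp1, which binds TOP messages, had 191 ± 35.9 against 224 ± 18.7 CPM (SD, n = 3 each; log2 fold change 0.23, SE 0.15). Of 75 tested mitochondrial ribosomal protein genes 0 were called, with a median of -0.0086, and their share of counts was 0.186 ± 0.035% against 0.183 ± 0.0227% (exact permutation p = 0.9). The block called none in any of these lists.

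Markers of other cells were read beside these results. Erythroid genes were higher after CpG in 5 of 10 tested, with summed levels of 54.6, 145 and 49.8 CPM in the untreated and 1490, 1346 and 320 CPM in the CpG-pretreated libraries, and Hba-a1 at 0 in all 6. Red pulp macrophage markers were lower in 3 of 10 (8 of 10 with the block), with sums of 488 to 624 against 344 to 460 CPM. Cell cycle genes were higher in 1 of 15 (14 of 15 with the block), with sums of 1702 to 1758 against 2373 to 2871 CPM. The part of these cells in the ribosomal protein counts was not tested. In bulk libraries fewer cells of a type and less RNA per cell cannot be told apart. The defining markers of the labelled cells were present, with all 8 genes of the conventional dendritic cell list and all 9 of the CD8-negative subset list above the filter. None of the 8 was called in either fit. Of the 9, Esam was lower after CpG (log2 fold change -0.75, SE 0.13, edgeR adjusted p = 0.0444), and with the block 3 were lower: Esam, Cd209a (-0.70, edgeR adjusted p = 0.000301) and Cd4 (-0.54, edgeR adjusted p = 0.0215). The sums of the 9 were 2822 to 3394 against 2554 to 3431 CPM. Of the 8 tested markers of the CD8-positive subset 0 were called, and 4 were higher with the block (Xcr1, Irf8, Itgae and Tlr3). Their sums were 1623 to 2798 against 1941 to 2627 CPM, most of it Wdfy4, and the other 7 summed to 84.4, 106 and 91.3 CPM in the untreated and 151, 184 and 94.6 CPM in the CpG-pretreated libraries. Markers above the filter were 5 of 7 for plasmacytoid dendritic cells, 3 of 7 for B cells and 5 of 7 for plasma cells. For NK cells they were 1 of 6, and for monocytes 6 of 6. None of these was called in either fit, and 1 of 6 tested neutrophil markers was higher with the block. T cell and platelet markers summed to at most 4.17 and 3.42 CPM, with no gene above the filter.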

How the data were processed

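The authors deposited read counts, 1 whole number per Entrez gene ID and library, made with CASAVA and featureCounts on the mm10 build, per the submitters' processing notes. Not given in the sources used here are versions, aligner, strandedness and how reads matching several genes were counted. The counts of the 6 samples equalled the table of the whole series. Symbols came from RefSeq GRCm38.p6 by gene ID (25275 matched; 1904 did not, with 0.327% of the counts). Within groups, chi-square per degree of freedom between libraries was 3.17 to 19.7, so all 6 counted as separate replicates.

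The fit ran on the whole table in edgeR 4.0.16 under R 4.3.3 (filterByExpr with minimum count 10 and total 15, TMM, robust quasi-likelihood F test, Benjamini-Hochberg over 11602 genes, called under 0.05). Each standard error is the fold change divided by the root of F. Deviations used log2(CPM + 0.5). Alternatives were limma 3.58.1 (voom), DESeq2 1.42.0, other scalings and filters, leaving out libraries, the replicate number as a block, and a lowess trend (span 0.5) of each library on log2 gene length entered as offsets. Both groups carry the numbers 2, 3 and 4, with no label to explain them. Departures from the group means correlated across genes at 0.48, 0.25 and 0.31 for equal numbers and -0.39 to 0.07 for unequal ones. On the data alone, equal numbers were therefore taken as pairs in the blocked fits and the paired comparisons. The main fit, with its standard errors and intervals, and the unpaired permutation tests left the number out. The main edgeR fit and the length-corrected fit, both without the block, were tested on simulated data. The blocked fits, limma-voom and DESeq2 were not.

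The genes, lists and naming rule were chosen with earlier results of these data known. Named were called genes, the 5 largest estimates in each direction, the 4 highest and lowest per length, paralogues and 25 genes fixed for their roles. The most abundant genes were named for some of the related lists only. From the lists of initiation factors, ribosome biogenesis, RNA polymerase I and mitochondrial ribosomal proteins no single gene was named. Larp1, Rpl7, Rpl13, Rpl23a, Rpl27a, Rpl34, Rpl36a, Rpl35a, Rps3a1, Rps14, Rps18, Rps21, Cd209a, Cd4, Xcr1, Irf8, Itgae, Tlr3, Wdfy4 and the copies Rpl32l, Rpl37rt and Rps23rg1 were named after their values were seen. A few single genes and 1 sequence are not reported here.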

Additional observations from a re-analysis of the deposited data

How the results depend on the processing

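All counts of ribosomal protein genes called higher were 0 under every alternative run. The number called lower was 0 except with the replicate block (1), with the length correction and replicate block (1), and, in an alternative chosen after seeing the data, with the replicate block but without both number 4 libraries (12; 0 without both number 2 or number 3 libraries). The median log2 fold change of -0.16 moved between -0.26 and 0.083 when 1 library was left out, reversing only without untreated replicate 2, and the difference in the share of counts, -0.0835 percentage points, between -0.16 and 0.0573, again reversing only there. Without both number 2 libraries they were -0.041 and -0.00794. The paired exact permutation of signs, also added after seeing the data, gave p = 0.5 for the share. With only 3 pairs that test could not have given a p under 0.05. The paralogue ratios kept their direction without each library in turn (added likewise), except Rps4l over Rps4x, whose log2 difference of 0.10 moved between -0.077, without CpG-pretreated replicate 3, and 0.21. Over all genes, 113 were called, against 189 with no filter, 41 by limma-voom, 428 by DESeq2, 988 with the replicate block, 368 with the length correction, 1145 with both, 0 to 386 with 1 library left out, 67 without both number 2 libraries, and 513, 482 and 1594 with the block but without number 2, 3 or 4. Leaving out CpG-pretreated replicate 2 or 3 gave 0 (1065 and 1107 genes at an unadjusted edgeR p under 0.05). The cause was not tested, beyond fewer samples in the last cases. Of 40 named genes tested, 17 changed sign without untreated replicate 2, 3 to 8 without any other single library, and 7 without both number 2 libraries. At most 4 did so under another scaling, filter, tool or correction. No gene that changed sign was called in the setting where it did. Genes under about 10 counts, Rpl24 and Rps27rt included, allow only wide intervals.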
